A study of Mus musculus with 2 samples.

Results

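The genes of the large ribosomal subunit proteins were described in polyadenylated RNA from G1E-ER4 cells, sequenced in paired ends. The 46 genes were chosen by symbol as the protein-coding genes of large subunit proteins, with pseudogenes left out. Each matched 1 gene identifier, of 43346 mouse genes listed. G1E-ER4 cells are immortalised mouse erythroid progenitors whose own Gata1 gene is disrupted. GATA1 activity is restored by a protein in which GATA1 is joined to the estrogen receptor's ligand-binding domain. All cells had been kept for 3 h in 10 nM 17beta-estradiol, which switches the joined protein on. There were 2 libraries in 1 group, numbered as biological replicates 1 and 2. The labels refer both to a single record of the cells, and their spread may thus be technical. Untreated cells were not analysed here, so the values are levels after estradiol and not responses to it.

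The large subunit of the cytosolic ribosome holds the peptidyl transferase centre, the exit tunnel of the nascent chain, the 5S RNA particle and the stalks that bring in translation factors and move tRNAs. Most of its proteins are present in a single copy per ribosome, whereas the acidic stalk proteins are present in pairs. Maturing erythroid cells make large amounts of globin, and loss of 1 copy of several of these genes causes Diamond-Blackfan anemia in humans. Messenger RNAs of ribosomal proteins typically begin with a run of pyrimidines, the terminal oligopyrimidine tract, through which nutrient signalling controls their translation.

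The genes are short and have many near-identical processed pseudogenes, so reads may match several places. In the coding part of every 1 of the 46 members, at least 1 stretch of 50 bases also occurred in a transcript of another annotated gene. The number of such other genes ran between 1 and 120 per member, with a median of 9.5. Together they came to 771 genes, of which 729 were processed pseudogenes, and no member shared such a stretch with another member. In 20 members no stretch of 50 bases was free of a copy elsewhere. Rpl7a, with 120 such genes, and Rpl21 and Rpl29, with 82 each, had the most. The deposited counts divide a read among the places it matches, and 42 of the 46 members had a fractional count in at least 1 library. The levels of members with many copies are therefore uncertain. Stretches from 4 members are shown because they carry this difference. The first line of the set is the most shared stretch of Rpl7a (gene at chr2:26910764-26913318, plus strand), bases 420 to 469 of its coding part, present in 43 other genes. The second is that of Rpl21 (chr5:146832890-146837032, plus strand), bases 96 to 145, in 44 other genes. The third is that of Rpl29 (chr9:106429454-106431568, plus strand), bases 211 to 260, in 30 other genes. The last is the first stretch of Rpl8 (chr15:76904078-76906314, plus strand), bases 1 to 50, found in no other gene. Sequences and gene positions come from GENCODE M21 (GRCm38, known as mm10).
Rpl7a: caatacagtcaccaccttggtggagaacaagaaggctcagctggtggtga
Rpl21: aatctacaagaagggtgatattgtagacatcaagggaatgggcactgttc
Rpl29: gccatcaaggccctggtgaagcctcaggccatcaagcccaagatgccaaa
Rpl8: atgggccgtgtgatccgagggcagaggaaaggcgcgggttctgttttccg

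Rpl8, Rpl4 and Rpl14 each shared stretches with only 1 other gene. No copy elsewhere was found for 91.3% of the stretches of Rpl8, 79.7% of those of Rpl4 and 22.3% of those of Rpl14. Pseudogenes that are named after a member were 152 genes. They held 532 TPM in replicate 1 and 974 TPM in replicate 2, and their counts came to 0.449% and 0.788% of the members' counts in those libraries. Genes under other names that share a stretch are not in these sums, and what they held was not measured. TPM is a measure of transcript abundance that corrects for length and has an equal total in every library.

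The libraries held 31126957 (replicate 1) and 57853617 (replicate 2) expected counts, which are estimated fragment numbers. All 9 erythroid markers chosen for the check were at 1 TPM or more in both libraries. None of the 4 lymphocyte, 4 granulocyte and monocyte, 3 fibroblast and 2 pluripotency markers reached 1 TPM in either, and Cd3e, Cd8a and Lyz2 had no count. Of 3 megakaryocyte markers, 2 did. Of the 9 erythroid markers, 3 were called higher in replicate 1 and 5 lower by the exact test described with the members. Klf1 was at 786 TPM in replicate 1, against 350 TPM in replicate 2, and Zfpm1 at 2427 TPM in replicate 1, against 1438 TPM in replicate 2. Tfrc was at 86.5 TPM in replicate 1, against 20.6 TPM in replicate 2. Globin RNA went the other way: Hbb-bs was at 863 TPM in replicate 1, against 9484 TPM in replicate 2, and Hba-a1 was at 149 TPM in replicate 1, against 6606 TPM in replicate 2. Gata1 was at 190 TPM in replicate 1, against 799 TPM in replicate 2; the tables give 1 value for this gene and do not separate the disrupted locus from the fusion.

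All 46 members were detected, that is, at 1 TPM or more, in both libraries. Their summed level was 95069 TPM in replicate 1, which is 9.51% of all TPM, and 144556 TPM, or 14.5%, in replicate 2. As a share of expected counts they held 3.40% in replicate 1 (95% Wilson interval 3.39% to 3.40%) and 5.41% in replicate 2 (5.40% to 5.41%). The intervals cover counting error only, and the shares lie outside each other's interval. The share of counts was below the share of TPM in both libraries. The 3 highest members held 57.1% of the members' TPM in replicate 1 and 45.5% in replicate 2, and the 8 highest held 83.4% and 75.7%. Of the 100 genes with the highest TPM, 11 in replicate 1 and 17 in replicate 2 were members.

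Levels spanned more than 3 orders of magnitude. The highest mean exceeded the lowest by 2326-fold. In replicate 1, 14 members were above 1000 TPM and 13 below 100 TPM. Replicate 2 had 18 above 1000 TPM and 12 below 100 TPM. The median was 273 TPM in replicate 1 and 333 TPM in replicate 2. Among all 10635 genes with enough counts to be tested, it was 12.7 and 12.2 TPM.

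**Figure D1:**
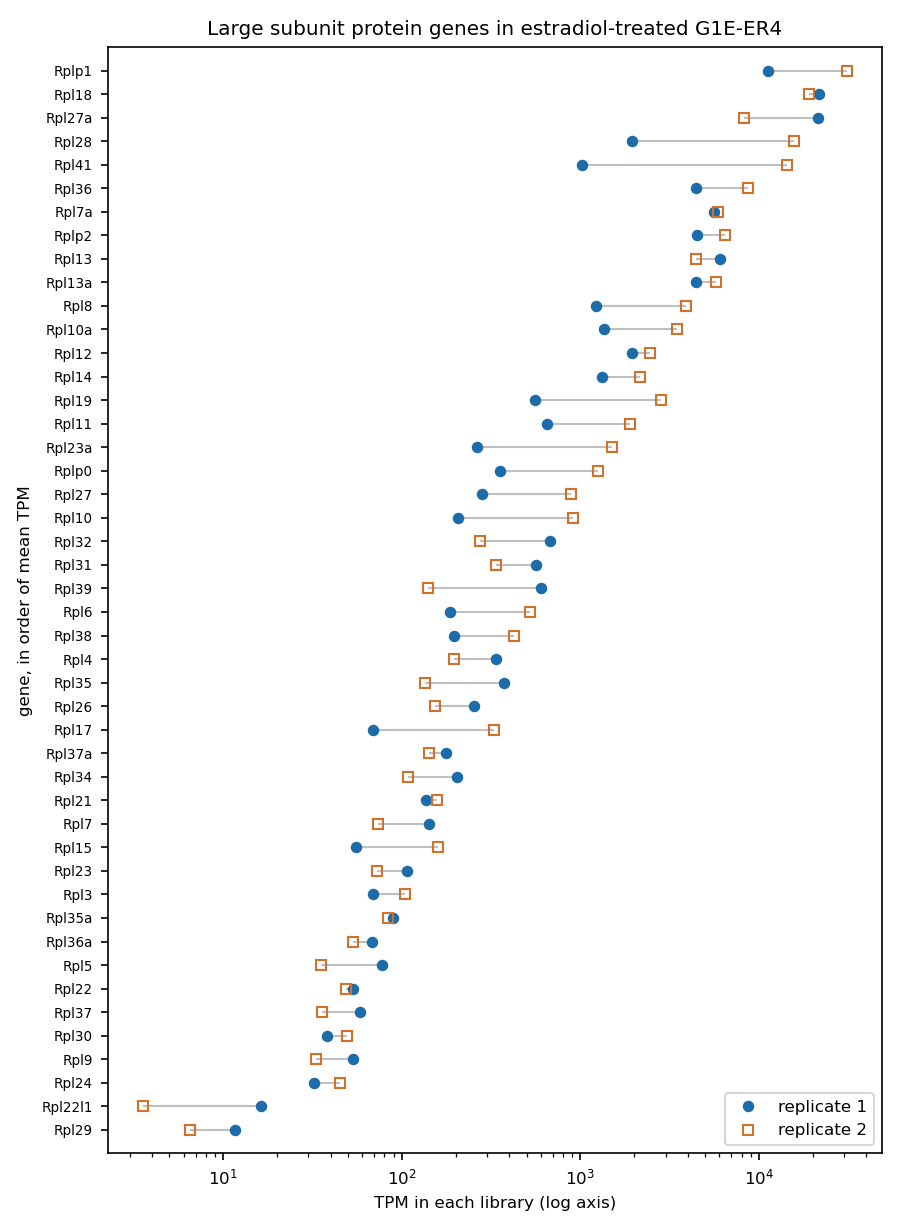
TPM of each of the 46 large subunit protein genes in the 2 libraries, on a log axis, with genes in order of mean TPM. Filled circles are replicate 1, open squares replicate 2, and the grey line joins the libraries. The order runs between Rplp1, at 11283 and 31042 TPM, and Rpl29, at 11.7 and 6.52 TPM, and the longest lines belong to Rpl41 and Rpl28.

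Rplp1 had the highest mean of all members, and the other genes of the P stalk and its base were spread over the upper part of the order. Rplp1, an acidic protein of the P stalk that recruits GTPase translation factors, was at 11283 TPM in replicate 1 and at 31042 TPM in replicate 2, a mean of 21162 ± 13972 TPM (SD, n = 2). It was the gene with the highest TPM of all in replicate 2 and the eighth in replicate 1. Its partner Rplp2 was at 4508 and 6454 TPM in replicates 1 and 2, a mean of 5481 ± 1376 TPM (SD, n = 2). Rplp0, the scaffold that anchors both acidic proteins, was lower, at 353 TPM in replicate 1 and at 1248 TPM in replicate 2, or 800 ± 633 TPM (SD, n = 2). Rpl12, at the base of the stalk, had 1948 and 2439 TPM in replicates 1 and 2. Rplp1 was thus 2.50 times as high as Rplp2 in replicate 1 and 4.81 times in replicate 2, and both were above Rplp0 in each library. On transcripts annotated as protein-coding alone, the order of Rplp2 and Rplp0 turned in replicate 1, where Rplp2 was at 165 TPM and Rplp0 at 211 TPM. In replicate 2 on that scale Rplp2 was at 3199 TPM and Rplp0 at 411 TPM. All 4 genes were lower in replicate 1.

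Around the peptidyl transferase centre the genes differed widely in level. Rpl8, which lies close to the site of peptide bond formation, was at 1221 TPM in replicate 1 and at 3927 TPM in replicate 2. Rpl10, which joins late in assembly and contacts the tRNA path, was at 206 and 907 TPM in replicates 1 and 2. Rpl3, whose extension reaches toward the centre, was at 69.0 and 105 TPM in replicates 1 and 2, a mean of 87.0 ± 25.4 TPM (SD, n = 2). The order Rpl8, Rpl10, Rpl3 held in both libraries. Rpl10a, the protein of the L1 stalk, which moves deacylated tRNA out of the ribosome, was at 1365 TPM in replicate 1 and at 3462 TPM in replicate 2.

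The pair of proteins that bind 5S RNA, and that also bind and inhibit MDM2, lay far apart. Rpl11 was at 648 TPM in replicate 1 and at 1906 TPM in replicate 2, a mean of 1277 ± 889 TPM (SD, n = 2). Rpl5 was at 77.9 TPM in replicate 1 and at 35.5 TPM in replicate 2, or 56.7 ± 30.0 TPM (SD, n = 2). Rpl11 was above Rpl5 in both libraries, and the genes differed between the libraries in opposite directions.

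The 9 genes of proteins that line or frame the exit tunnel had a median of 336 TPM in replicate 1 and 196 TPM in replicate 2. This was above the median of all members in replicate 1, 273 TPM, and below it in replicate 2, 333 TPM. They ranged between 53.1 and 603 TPM in replicate 1 and between 48.7 and 2840 TPM in replicate 2. Rpl19 was the highest by mean, at 557 and 2840 TPM in replicates 1 and 2, followed by Rpl23a, a docking site of the signal recognition particle, at 263 and 1501 TPM. Rpl39, a very small tunnel protein, was at 603 TPM in replicate 1 and at 140 TPM in replicate 2. Rpl31, Rpl4, Rpl35, Rpl26 and Rpl17 had means between 199 and 450 TPM. Rpl22 was the lowest of the group.

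Of 4 genes at the subunit interface, 3 lay far below the median of the members. Rpl24, which forms a bridge to the small subunit, was at 32.4 TPM in replicate 1 and at 45.2 TPM in replicate 2, a mean of 38.8 ± 9.06 TPM (SD, n = 2). Rpl30 was at 38.4 and 49.4 TPM and Rpl23, which binds the anti-association factor eIF6, at 106 and 72.8 TPM in replicates 1 and 2. The exception was Rpl41, at 1023 TPM in replicate 1 and at 14400 TPM in replicate 2, a mean of 7712 ± 9459 TPM (SD, n = 2). It encodes the shortest protein of the ribosome, another bridge to the small subunit, with 25 codons before the stop. Its coding part, shown because it is the shortest among the members, is given with start and stop codon in capitals. The gene lies on the minus strand at chr10:128548114-128549305, and the transcript is Rpl41-203, which held 96.0% of the gene's TPM in each library.
Rpl41: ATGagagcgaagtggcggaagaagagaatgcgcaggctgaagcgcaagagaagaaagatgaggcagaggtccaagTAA

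The 22 other proteins of the body of the subunit held the widest range. Rpl18 was at 21622 TPM in replicate 1 and at 19104 TPM in replicate 2, a mean of 20363 ± 1781 TPM (SD, n = 2), and ranked 2 in replicate 1 and 3 in replicate 2 among all genes. Rpl27a was at 21337 TPM in replicate 1 and at 8219 TPM in replicate 2, or 14778 ± 9276 TPM (SD, n = 2). Rpl28, which budding yeast lacks, was at 1942 and 15664 TPM in replicates 1 and 2, a mean of 8803 ± 9703 TPM (SD, n = 2). Rpl36 followed at 4424 and 8644 TPM, or 6534 ± 2984 TPM (SD, n = 2). These 4 with Rplp1 and Rpl41 made up the 6 highest means. Rpl7a, Rpl13 and Rpl13a had means between 5104 and 5732 TPM. Rpl13a also serves as a translational silencer in interferon-treated human myeloid cells.

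At the other end of the body proteins were Rpl29 and Rpl9. Rpl29 was at 11.7 TPM in replicate 1 and at 6.52 TPM in replicate 2, a mean of 9.10 ± 3.65 TPM (SD, n = 2), the lowest mean of all members, and it shares stretches with 82 other genes. Rpl9 was at 53.4 and 33.1 TPM in replicates 1 and 2, or 43.3 ± 14.4 TPM (SD, n = 2). Rpl14, Rpl27, Rpl32, Rpl6 and Rpl38 lay between 310 and 1735 TPM by mean; mice with too little RPL38 protein have skeletal patterning defects. Rpl37a, Rpl34, Rpl21, Rpl7, Rpl15, Rpl35a, Rpl36a and Rpl37 had means between 47.0 and 160 TPM.

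Rpl22 and its paralog Rpl22l1 were both low. Rpl22 was at 53.1 TPM in replicate 1 and at 48.7 TPM in replicate 2, a mean of 50.9 ± 3.14 TPM (SD, n = 2). Rpl22l1, which RPL22 protein represses in mouse tissues, was at 16.2 TPM in replicate 1 and at 3.55 TPM in replicate 2, or 9.90 ± 8.97 TPM (SD, n = 2). Their coding parts were 71.8% identical over 362 aligned bases. Rpl22 was 3.27 times as high as Rpl22l1 in replicate 1 and 13.7 times in replicate 2. These ratios depend on the scale. On posterior means Rpl22l1 was at 19.5 TPM in replicate 1 and at 6.26 TPM in replicate 2. On transcripts annotated as protein-coding alone, Rpl22 was at 51.6 and 34.9 TPM in replicates 1 and 2. Rpl22l1 was then at 0.59 TPM in replicate 1 and at 1.35 TPM in replicate 2, so its libraries changed order.

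Paralogs of members that are not among the 46 were low or without counts. Rpl36al was at 87.1 and 75.2 TPM and Rpl7l1 at 5.75 and 7.53 TPM in replicates 1 and 2. Rpl10l and Rpl39l, paralogs of male germ cells, had a count of 0 in both libraries, which allows up to 3 counts in each. Rpl3l, the paralog of striated muscle, had 0 counts in replicate 1 and 5 in replicate 2. The parent Rpl36a was at 67.7 and 53.5 TPM in replicates 1 and 2, below Rpl36al in each.

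Of the 9 members in which heterozygous mutations cause Diamond-Blackfan anemia in humans, all were detected. Their median was 282 TPM in replicate 1 and 159 TPM in replicate 2. They spanned most of the range, with Rpl18 the highest and Rpl5 the lowest by mean. Rpl15 was at 55.6 TPM in replicate 1, against 159 TPM in replicate 2.

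The order of the members was largely kept between the libraries. Of 1035 pairs of members, 898 had the same order in both. Of the 10 highest members of replicate 1, 9 were among the 10 highest of replicate 2, and of the 10 lowest, 8 were. Across the 46 members, Spearman's rho between the libraries' TPM was 0.90, given as a description since the genes share libraries. Neighbours in the order were rarely apart: in 42 of 45 neighbouring pairs the difference of the means was smaller than the larger SD.

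Individual members nevertheless differed between the libraries by more than counting noise. The comparison used expected counts scaled to library size by TMM, in an exact two-sided binomial test with Benjamini-Hochberg adjustment over all 10635 tested genes. The test sets 2 libraries of 1 condition against each other and covers counting error alone. At an adjusted p of 0.05 it called 44 of 46 members, against 80.7% of all tested genes. By direction, 16 were higher in replicate 1 (all genes 37.4%) and 28 were lower in replicate 1, that is, higher in replicate 2 (all genes 43.3%). Rpl37a (exact adjusted p = 0.790) and Rpl36a (exact adjusted p = 0.722) did not pass. Rpl22 (exact adjusted p = 0.0235) and Rpl35a (exact adjusted p = 0.0292) passed with log2 ratios of -0.14 each, replicate 1 over replicate 2, and with total counts in place of TMM their log2 ratios were 0.03 each and they did not pass. The authors' own intervals of TPM did not overlap for 44 members, against 72.9% of all tested genes, of which 19 had the higher value in replicate 1 and 25 in replicate 2. The interval's level is not given in the sources used here. The intervals surround the authors' posterior mean TPM and can leave out the TPM given here. For Rplp1 in replicate 1 the interval ran between 10891 and 11028 TPM, and the TPM was 11283.

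A difference of at least 2-fold was found for 20 of 46 members, against 26.8% of tested genes. Of these, 2 were higher in replicate 1 (all genes 7.32%) and 18 were lower in replicate 1, or higher in replicate 2 (all genes 19.5%). On TPM with a pseudocount of 1 in place of scaled counts, 6 were at least 2-fold higher in replicate 1 and 15 lower. The median log2 ratio of the members was -0.38, replicate 1 over replicate 2, beside -0.06 over all tested genes. By the same rule, 19 of the 32 small subunit genes were at least 2-fold apart, 1 higher in replicate 1 and 18 lower, with a median log2 ratio of -2.57. The 48 numbered genes of the mitochondrial large subunit had 1 and 15, with a median of -0.30.

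The largest differences were found among genes lower in replicate 1. Rpl41 had 10278 scaled counts in replicate 1, against 176050 in replicate 2, a log2 ratio of -4.10. Rpl28 had 14534 scaled counts in replicate 1 and 130078 in replicate 2, a log2 ratio of -3.16. Rpl23a had 3574 and 25763 scaled counts in replicates 1 and 2, a log2 ratio of -2.85. Rpl19 (log2 ratio -2.67) and Rpl17 (-2.58) completed the 5 largest. All 5 passed the exact test. Globin RNA was also lower in replicate 1, while Klf1, Zfpm1 and Tfrc were higher, as given above, and their part in these differences was not tested.

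Fewer members were clearly higher in replicate 1. Rpl39 had 9417 scaled counts in replicate 1, against 2702 in replicate 2, a log2 ratio of 1.80. Rpl22l1 had 214 scaled counts in replicate 1 and 79.5 in replicate 2, a log2 ratio of 1.41. These were the only 2 past 2-fold in this direction. Rpl32, with 8401 and 4219 scaled counts in replicates 1 and 2, was just short of 2-fold, at a log2 ratio of 0.99. Rpl27a (log2 ratio 0.72) and Rpl5 (0.65) followed. On TPM the same ratio was 1.38 for Rpl27a and 1.13 for Rpl5, so the scale moved it. The sign of the ratio differed between TPM and scaled counts for 3 members, Rpl18, Rpl22 and Rpl35a.

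**Figure D2:**
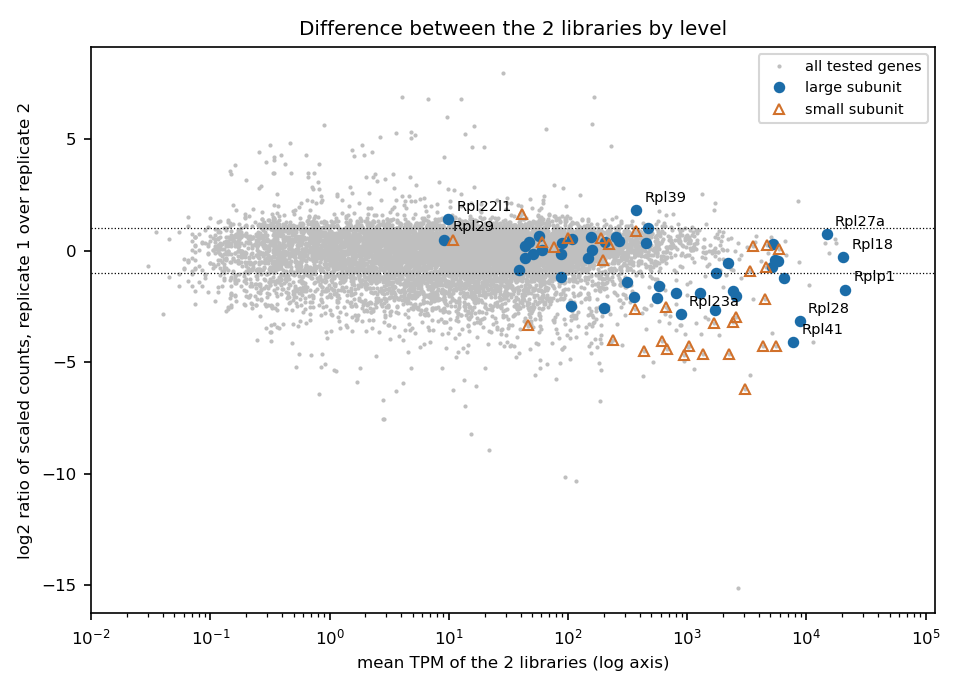
Log2 ratio of scaled counts, replicate 1 over replicate 2, against mean TPM on a log axis, for all 10635 tested genes in grey, large subunit genes as filled circles and small subunit genes as open triangles. Dotted lines mark 2-fold. Of the large subunit genes 18 lie below the lower line and 2, Rpl39 and Rpl22l1, above the upper one.

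Set beside the small subunit, the large subunit genes had the larger sum in both libraries. The sums were 95069 TPM for the large and 30832 TPM for the small subunit in replicate 1, a ratio of 3.08, and 144556 and 81486 TPM in replicate 2, a ratio of 1.77. Medians were not ordered the same way. In replicate 1 they were 273 TPM for the large and 194 TPM for the small subunit, and in replicate 2 they were 333 and 1550 TPM. The difference between the subunits was not tested.

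Much of the members' TPM was assigned to transcripts that M21 does not annotate as protein-coding. The 46 genes have 231 transcripts in the tables, of which 97 are protein-coding, 75 have a retained intron and 34 are other processed transcripts in GENCODE M21. A further 18 are not in M21 and 7 are targets of nonsense-mediated decay. Protein-coding transcripts held 43.2% of the members' TPM in replicate 1 and 75.6% in replicate 2. Over the protein-coding genes whose mean reached 1 TPM, the same share was 69.5% and 74.2%. Retained-intron transcripts held 32.5% of the members' TPM in replicate 1 and 11.6% in replicate 2. The transcripts that are not in M21, whose type is unknown, held 22.9% in replicate 1 and 11.2% in replicate 2.

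The split differed sharply between genes. In each library 20 members had at least 99% of their TPM on protein-coding transcripts, among them Rplp1, Rpl8, Rpl36 and Rpl28. For Rpl28 most of it lay on Rpl28-203, which held 83.0% in replicate 1 and 88.5% in replicate 2. That transcript is annotated as protein-coding but is 312 bases long, shorter than the complete coding part of 411 bases in Rpl28-201. In 7 of 46 members the transcript with the largest share was not annotated as protein-coding in M21 in either library, a count that includes transcripts absent from M21, whose type is unknown, against 15.2% of protein-coding genes of at least 1 TPM, which is the same share. They were Rpl12, Rpl13, Rpl18, Rpl22l1, Rpl24, Rpl27a and Rplp2. For Rpl27a the transcript Rpl27a-204, which has a retained intron and is only 350 bases long, held 83.6% of its TPM in replicate 1 and 71.7% in replicate 2. For Rpl18 a transcript of 450 bases that is not in M21, and so of unknown type, held 82.2% in replicate 1 and 63.8% in replicate 2. For Rpl12, protein-coding transcripts held 1.92% in replicate 1 and 2.78% in replicate 2.

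Short transcripts weigh heavily in TPM, because counts are divided by an effective length. The tables subtract 136 bases in replicate 1 and 152 bases in replicate 2 from a long transcript's length. For Rpl27a-204 this left 214 bases in replicate 1 and 198 in replicate 2. That transcript had 94464 of the gene's 179844 expected counts in replicate 1 and 61108 of 179471 in replicate 2. For Rpl28-203, which counts as protein-coding, the subtraction left 176 bases in replicate 1 and 160 in replicate 2. On protein-coding transcripts alone Rpl27a was at 3296 and 2197 TPM in replicates 1 and 2, Rpl18 at 3798 and 6861 TPM, and Rpl12 at 37.4 and 67.7 TPM. On that scale 7 of the 10 highest members remained among the 10 highest.

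The main transcript differed between the libraries in 16 of the 37 members with more than 1 transcript, against 27.4% of protein-coding genes of at least 1 TPM with more than 1. In 5 of these it was protein-coding in both. They were Rpl10 (Rpl10-201 in replicate 1, Rpl10-211 in replicate 2), Rpl5, Rpl15, Rpl35a and Rpl38. The main transcript of Rpl5 in replicate 1, Rpl5-206, is 834 bases long, shorter than the complete coding part of 891 bases in Rpl5-201. In 10 it was protein-coding in 1 library only. Rpl3-201 held 90.2% of the TPM of Rpl3 in replicate 1 and 29.1% in replicate 2, where Rpl3-204, with a retained intron, held 56.1%. For Rpl27, the processed transcript Rpl27-204 had 10.1% in replicate 1 and 74.5% in replicate 2. Rpl35 showed the opposite, its processed transcript Rpl35-203 holding 95.1% in replicate 1 and 44.1% in replicate 2. Rpl6, Rpl21, Rpl23 and Rplp0 likewise had a protein-coding main transcript only in replicate 1, and Rpl7, Rpl10a and Rpl13a only in replicate 2. The main transcript of Rpl13a in replicate 1 is not in M21 and of unknown type. Rpl22l1 had different processed transcripts in the libraries.

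**Figure D3:**
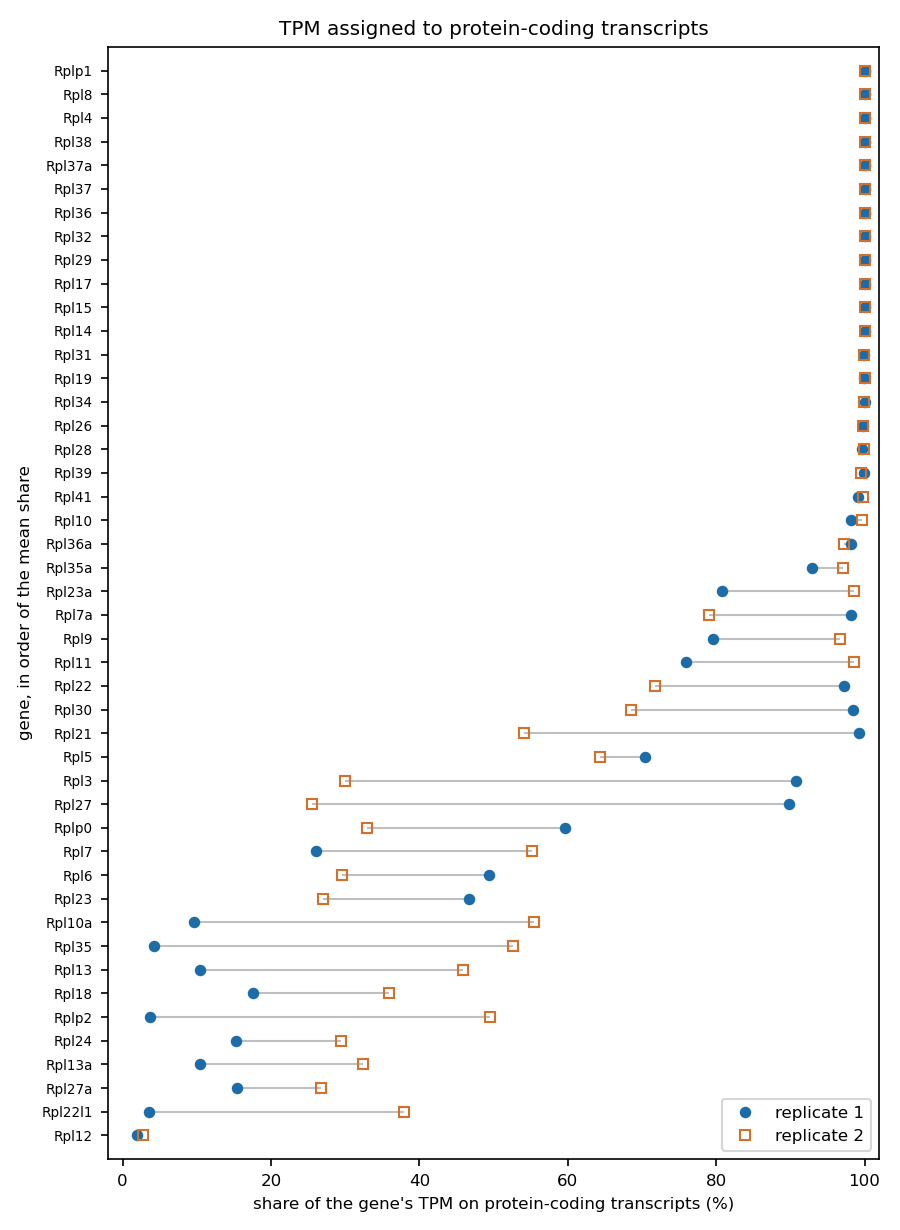
Percent of each gene's TPM that is assigned to transcripts annotated as protein-coding in GENCODE M21, for the 46 members in order of the mean of the libraries. Filled circles are replicate 1 and open squares replicate 2. Rpl12 is lowest, at 1.92% and 2.78%, and 14 members differ by more than 20 percentage points, 6 with the larger share in replicate 1 and 8 in replicate 2.

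Small nucleolar RNA genes, which guide modification of ribosomal RNA, lay within 19 of the 46 members on the same strand. Rpl4 held 5 and Rpl13a held 4. Members with such a gene had a median of 263 TPM in replicate 1 and 330 TPM in replicate 2, and the 27 without had 282 and 335 TPM, so the medians were close. The 6 retained-intron transcripts that were main transcripts by mean share held no whole small nucleolar RNA gene in an exon.

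Members with more G and C in the coding part had higher levels. G and C made up between 39.7%, in Rpl22l1, and 61.6%, in Rpl36. Across the 46 members Spearman's rho between this share and TPM was 0.64 in replicate 1 and 0.68 in replicate 2. The same measure was 0.50 and 0.77 over the 32 small subunit genes and 0.22 and 0.27 over 8579 protein-coding genes of at least 1 TPM. These are descriptions across genes that share a library and its chemistry. The 15 members with the highest share, at 54.3% and above, had a median of 1942 TPM in replicate 1 and 4415 TPM in replicate 2. The 15 with the lowest, at 50.6% and below, had 89.5 and 74.1 TPM, and no mean above 1000 TPM. Rpl29 stood apart, with 57.3% G and C and the lowest mean level. The log2 ratio between the libraries had a rho of -0.33 with G and C, beside -0.16 over 8577 protein-coding genes. The part of base composition in the levels was not tested. The number of genes with a shared stretch had a rho of -0.20 with mean TPM, and the length of the coding part 0.07. With the log2 ratio between the libraries, the number of such genes had a rho of -0.02. The percent of a member's stretches without a copy elsewhere had a rho of 0.36 with that ratio. The part of shared sequence in the differences was not tested.

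**Figure D4:**
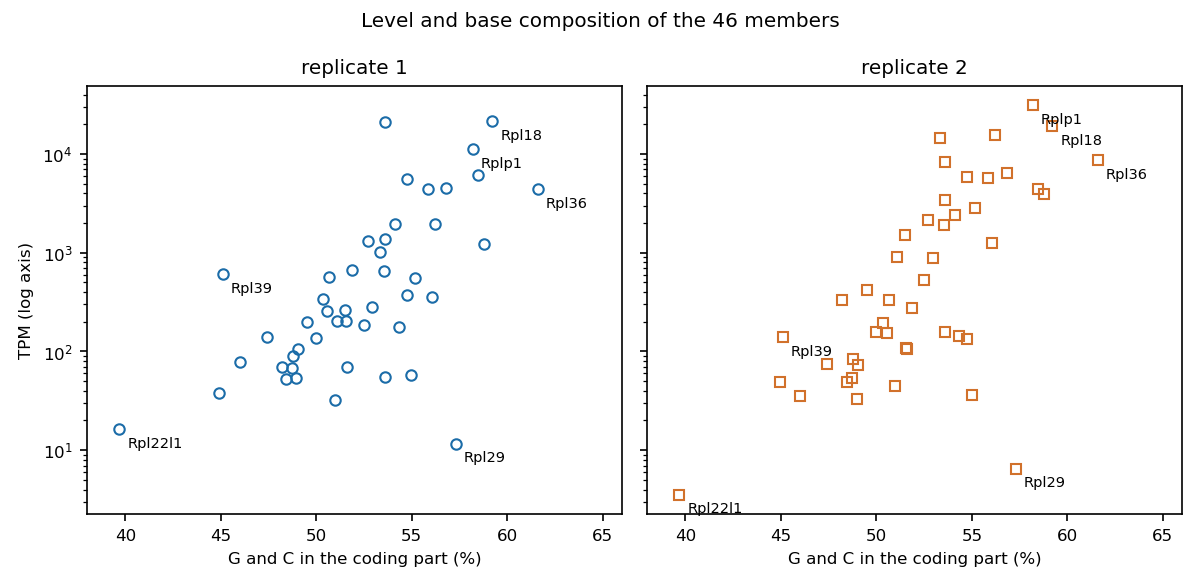
TPM on a log axis against the percent of G and C in the coding part of the most abundant complete protein-coding transcript, for the 46 members in replicate 1 (left) and replicate 2 (right). The points rise to the right in both panels, with a Spearman's rho of 0.64 and 0.68, and Rpl29 lies far below the others of its composition.

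Sequence at the transcription start was read for the 35 members with an entry among the RefSeq promoter windows on GRCm38.p6, which run from 250 bases before to 50 after the start. The letters CTTTC, searched on the transcribed strand from 10 bases before to 20 after the start, were found in 11 of 41 member windows, or 26.8%, beside 3.74% of all 32851 windows. The ETS core CCGGAAG, searched on both strands over the whole 300 bases, was in 14 member windows (34.1%, all windows 8.86%). The E-box CACGTG was in 7 windows of 5 members (17.1% of member windows, all windows 7.15%). The GATA letters AGATAA were in 3 (7.32%, all windows 11.2%) and the TATA letters TATAAA in 5 (12.2%, all windows 13.6%), each on both strands. AAGATGG, the core bound by YY1, was in 6 windows of 4 members (14.6% of member windows, all windows 6.34%), also on both strands. No motif contains another. A match is a description of the letters and not a site of binding. The windows of 3 of the highest and 3 of the lowest members with CTTTC are shown because a pyrimidine run at the start is the known mark of these genes. The letters stand in capitals, and each window holds 10 bases before the start and 20 from it. They lie at chr7:45718061-45718090 (Rpl18, plus strand), chr7:109519185-109519214 (Rpl27a, plus strand), chr7:4792955-4792984 (Rpl28, plus strand), chr2:39005112-39005141 (Rpl35, minus strand), chr14:18270967-18270996 (Rpl15, minus strand) and chr16:33056472-33056501 (Rpl35a, plus strand).
Rpl18: ctcgcaggccgctCTTTCcccgcccactcc
Rpl27a: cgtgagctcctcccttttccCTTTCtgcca
Rpl28: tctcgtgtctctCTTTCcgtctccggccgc
Rpl35: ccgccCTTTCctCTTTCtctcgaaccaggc
Rpl15: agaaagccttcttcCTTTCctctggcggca
Rpl35a: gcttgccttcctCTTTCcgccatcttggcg

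The 11 members with these letters included both high ones, such as Rpl18, at a mean of 20363 TPM, and low ones, such as Rpl35a, at 86.7 TPM. As other genes with such tracts, 17 genes of translation factors and related proteins were read from a list. Their median was 304 TPM in replicate 1 and 268 TPM in replicate 2. Of the 17, 8 were called higher in replicate 1 and 9 lower by the exact test, with 2 and 5 at least 2-fold apart. Their median log2 ratio was -0.36, beside -0.38 for the large subunit genes, -2.57 for the small subunit genes and -0.30 for the mitochondrial large subunit genes. Whether the tract has a part in these ratios was not tested.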

How the data were processed

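The 2 libraries of estradiol-treated cells form 1 group. Per the text deposited with the tables, reads were aligned to mm10 and quantified on GENCODE M4, with aligner and quantifier not given in the sources used here. The deposited expected counts are estimated fragments and need not be whole. The deposited TPM values, and the FPKM values, which were not used, are scaled to effective length by the authors, per the file headers. The authors' transcript tables give the percent of a gene's TPM on each transcript. Depth was 31126957 and 57853617 expected counts.

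Here counts were rounded to whole numbers. A quasi-likelihood test needs replicates on each side, and here each side is 1 library. Genes whose counts summed to 20 or more were therefore compared by an exact conditional binomial test, two-sided, with library sizes from edgeR 4.0.16 (TMM) and Benjamini-Hochberg adjustment at 0.05. Ratios of scaled counts use a prior count of 2. The test was run on simulated data first. Transcript types, gene positions and sequences came from GENCODE M21, since M4 was not used here, and promoter windows from RefSeq. G and C were counted in the protein-coding transcript with the highest mean TPM among those complete from start to stop codon. Shared stretches of 50 bases were sought in all M21 transcripts.

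Members, lists and tests were chosen with earlier results of these data known. The text gives in full the 6 highest and 4 lowest members, the 5 largest differences in each direction, Rplp0, Rplp1, Rplp2, Rpl5, Rpl11, Rpl22, Rpl22l1, Rpl3, Rpl41 and members whose main transcript differs, and the others by value or range. Alternatives were DESeq2 1.42.0 size factors, total counts, no filter, posterior mean values, TPM with a pseudocount of 1 or 0.1, 1 library alone and, added after seeing the data, protein-coding transcripts alone. Some genes of the lists are not reported here.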

Additional observations from a re-analysis of the deposited data

How the results depend on the processing

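The count of members beyond counting noise was 44, 42 without the filter on low counts and 44 under each other scaling. The count at least 2-fold apart was 20 or 21 under each scaling, posterior mean counts and both pseudocounts on TPM. By the pseudocounts on TPM, 6 members were higher in replicate 1 and 15 lower, against 2 and 18 by scaled counts. Total counts moved the median log2 ratio of all tested genes to 0.11, against -0.06 with TMM. With them the log2 ratios turned to 0.031 for Rpl22 and 0.034 for Rpl35a, and Rpl36a and Rpl37a passed the exact test. Rpl22 (exact adjusted p = 0.0924) and Rpl35a (0.114) did not pass without the filter, where more genes are tested. The median of the members' means was 363 TPM, 356 TPM on posterior means, and between 273 and 333 TPM with 1 library left out. The mean share of TPM was 12.0%, and between 9.51% and 14.5% with 1 library left out. It was 12.1% with named pseudogenes added, 7.52% on protein-coding transcripts alone and 4.40% as a share of expected counts, which are not divided by length. Of the 10 highest members, 9 were among the 10 highest by counts, 10 by counts per annotated length and 7 on protein-coding transcripts. The main transcript by mean share was annotated as protein-coding in 34 members, and between 33 and 35 with 1 library left out. No paired analysis was possible because there is 1 group. Both libraries refer to 1 record of the cells, so whether their spread includes that between cultures is not known.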
